A study of Mus musculus with 360 samples.

Results

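The nuclear-encoded genes of the respiratory chain and ATP synthase were followed in single skeletal stem/progenitor cells of the mouse. They were taken by symbol. A row of the count tables was a member where its symbol was Nduf followed by a, b, c, s or v and a number, was Sdha, Sdhb, Sdhc or Sdhd, began with Uqcr or Atp5, or began with Cox, a digit from 4 to 8 and then a, b or c. This gave 82 of 24015 genes, of which 37 carried names of complex I, 4 of complex II, 8 of complex III, 16 of complex IV and 17 of complex V. The cells were wild-type CD-1 mouse cells of postnatal day 3, and all of them had been sorted as CD51+;CD200+ cells lacking 6C3, CD105, both Thy1 forms, Tie2, Ter119 and CD45. They came from 4 tissues, which were the coronal (COR), posterior frontal (PF) and sagittal (SAG) sutures of the skull and the growth plate (GP) of the tibia. A suture sample held the osteogenic fronts, suture mesenchyme, dura mater and periosteum together before the sort. Every tissue was represented by 2 plates of full-length single-cell libraries, and 325 of 360 cells passed the filter of 500 genes and 10000 reads, with 87 from PF, 86 from SAG, 74 from COR and 78 from GP. No animal was named for any cell and mice had been pooled, so each tissue was 1 sample, its plates gave the only spread, and no p-value could be given.

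The respiratory chain passes electrons from NADH (complex I) and succinate (complex II) through complex III and complex IV to oxygen, and complex V, the ATP synthase, uses the proton gradient so built to make ATP. Most subunits are encoded in the nucleus and imported, and the core subunits of complexes I, III, IV and V that mitochondrial DNA encodes complete the enzymes. In the skeleton, osteoblast-lineage cells use both glycolysis and respiration, and cartilage is a tissue of low oxygen supply known for its glycolysis. The tables held 0 mitochondrially encoded genes, so only the nuclear side could be read. The symbol rule took 3 genes that encode no classical subunit, namely Ndufa4l2, a paralogue of Ndufa4 known to be induced by hypoxia, and Atp5s and Atp5sl. It left out the subunits Cyc1, Cox4i1, Cox4i2, Ndufab1, Usmg5 and 2010107E04Rik, which were followed beside the members.

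The promoters of respiratory chain genes are textbook targets of the factors NRF1 and GABP. Of the 82 members, 69 had an entry among the RefSeq promoter sequences (build GRCm38.p6), and the 250 bases before the start were searched on both strands. The NRF1-type letters GCGCATGC or GCATGCGC stood in 8 of 69 members (11.6%) and in 2.32% of all 27025 promoters. The ETS letters CCGGAAG or CTTCCGG, the kind that GABP binds, stood in 11 (15.9%) and in 7.05% of all. The YY1-type letters AAGATGG or CCATCTT were in 0 members and in 4.53% of all promoters. The GC box GGGCGG was in 25 members (36.2%) against 32.9%, the hypoxia element core ACGTG in 16 (23.2%) against 16.6%, and the TATA letters TATAAA in 6 (8.7%) against 13%. Median GC content was 56% in members and 52% in all promoters, and the median number of CpG pairs was 14 against 6. The NRF1-type letters are rich in CpG, and no allowance for base composition was made. These are matches of letters and not shown to be sites. Upstream sequences of 4 members are printed because their levels contrast below: Cox6a1 and Atp5g2 kept reads on SAG plate 2, Sdhb had none there, and Atp5b was the most read member elsewhere. Atp5b also kept reads on SAG plate 2, in 8 cells, as Atp5g2 did in 9. In mm9 Atp5g2 has 3 intronless copies at 100% identity, so its reads cannot be tied to the sequence printed. Capitals mark NRF1-type, ETS and hypoxia element letters, and GC boxes are left in lower case. Where the NRF1-type letters of both strands overlap they appear as GCGCATGCGC.
Cox6a1 (chr5:115348959-115349208, minus strand): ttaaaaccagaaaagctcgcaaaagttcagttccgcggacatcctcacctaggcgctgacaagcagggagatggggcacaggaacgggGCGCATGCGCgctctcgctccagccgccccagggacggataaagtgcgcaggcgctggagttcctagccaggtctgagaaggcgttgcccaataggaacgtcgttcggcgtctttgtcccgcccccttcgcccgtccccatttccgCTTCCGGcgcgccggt
Atp5g2 (chr15:102671048-102671297, minus strand): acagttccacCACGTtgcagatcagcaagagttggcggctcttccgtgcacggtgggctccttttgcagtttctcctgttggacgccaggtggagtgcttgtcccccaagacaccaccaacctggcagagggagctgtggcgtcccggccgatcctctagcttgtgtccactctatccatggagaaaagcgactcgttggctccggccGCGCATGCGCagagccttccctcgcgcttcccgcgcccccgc
Sdhb (chr4:140961021-140961270, plus strand): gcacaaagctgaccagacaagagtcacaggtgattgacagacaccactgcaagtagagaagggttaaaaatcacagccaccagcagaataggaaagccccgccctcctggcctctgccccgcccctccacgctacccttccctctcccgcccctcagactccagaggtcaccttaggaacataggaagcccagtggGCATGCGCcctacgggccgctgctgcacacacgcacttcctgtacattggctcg
Atp5b (chr10:128083057-128083306, plus strand): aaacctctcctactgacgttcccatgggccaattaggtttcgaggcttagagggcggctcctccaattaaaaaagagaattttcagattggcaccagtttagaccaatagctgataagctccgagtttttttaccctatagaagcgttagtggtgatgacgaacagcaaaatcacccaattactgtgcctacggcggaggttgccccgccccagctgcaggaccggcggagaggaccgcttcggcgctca
Cox6a1 held NRF1-type and ETS letters, Sdhb held NRF1-type letters, Atp5g2 held these and the hypoxia element core, and Atp5b held none of the 3 capitalised kinds.

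Levels are reads summed over the passing cells and divided by all reads other than those of Rn45s, a ribosomal RNA precursor gene, and are given as RPM, the reads expected in a total of 1000000. SAG plate 2 stood apart from the other 7 plates before any respiratory gene was considered. Rn45s took 86.8% of its reads, against 20.2% to 31% on the other plates, and its cells had a median of 875 genes with a read, against 2112 to 3867. Its depth without Rn45s was like that of SAG plate 1, with medians of 184232 and 188427 reads per cell. SAG values are therefore also given by plate, and what sets SAG plate 2 apart was not tested. The osteoblast markers (9 genes) made up 187514 and 101833 RPM on the PF plates, 61859 and 14739 on the SAG plates, 167265 and 114594 on the COR plates, and 50707 and 111849 on the GP plates. GP plate 1 thus lay below SAG plate 1, and Spp1 stood there at 557 RPM against 39114 on GP plate 2. The chondrocyte markers (9 genes) stood at 20815 and 12411 on the SAG plates, 908 and 6350 on the GP plates, and at most 389 on the PF and COR plates. The part of these plate differences in the comparisons of respiratory genes was not tested. Endothelial, blood, erythroid, skeletal muscle and brown adipocyte markers, cells that could bring respiratory genes of their own, were each at 16.4 RPM or lower in every tissue. Genes of hindlimb position were at 188 RPM in GP and at most 0.231 in the sutures, which matched the tissue labels.

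Respiratory chain genes took 0.850% to 1.18% of the reads other than Rn45s on 7 plates and 0.217% on SAG plate 2. The summed level was 11119 RPM in PF (Poisson interval 11082 to 11157), 5555 in SAG, 10078 in COR and 9066 in GP. By plate it was 8503 and 11754 in PF, 10650 and 2167 in SAG, 10297 and 10053 in COR, and 10068 and 8856 in GP. The 7 plates other than SAG plate 2 thus lay between 8503 and 11754, both of these in PF, and SAG plate 2 lay far under all of them. The intervals state counting error alone, because reads are PCR copies without molecular identifiers, and in summed values fewer cells that read a gene and fewer reads per cell cannot be told apart.

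**Figure D1:**
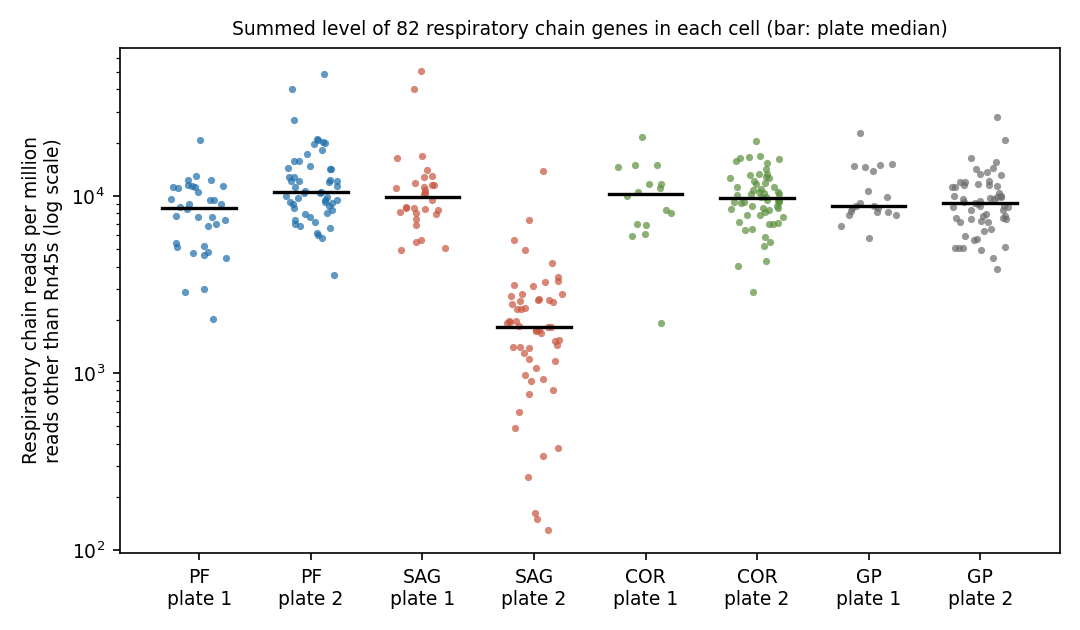
RPM of the 82 respiratory chain genes in each passing cell (points, log axis), by plate, with the median of the plate as a bar. Medians ran from 8563 on PF plate 1 to 10581 on PF plate 2 on 7 plates, and the median of SAG plate 2 was 1822.

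Single cells spread widely around these sums. The median cell of a plate held 8563 and 10581 RPM in PF, 9871 in SAG plate 1, 10264 and 9693 in COR, and 8793 and 9108 in GP. The coefficient of variation among cells was 34.6% to 45.6% on the COR and GP plates and on PF plate 1, 61.3% on PF plate 2, 79.5% on SAG plate 1 and 94.5% on SAG plate 2. In 15 of the 325 cells the level passed 20000 RPM, and 7 of these were on PF plate 2. The highest cells of SAG plate 1 held 51041 and 40103 RPM, with 65 and 73 members read, and the highest of PF plate 2 held 48695 and 40436, with 70 and 50 members read. In the top cell of SAG plate 1 the leading member, Atp5f1, held 4226 of the 51041 RPM. Mitochondrial ribosomal protein genes stood at 7836 RPM in that cell, against a plate median of 2998.

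Complexes V and I held most of the member reads on each of the 7 plates. Complex V genes made up 40.4% to 46.1% of member reads, complex I genes 27.8% to 31.7%, complex III genes 9.93% to 11.6%, complex IV genes 7.93% to 11.2% and complex II genes 5.06% to 7.56%. In RPM, the ranges over the 7 plates were 3768 to 4750 for complex V, 2369 to 3726 for complex I, 921 to 1368 for complex III, 674 to 1316 for complex IV and 501 to 739 for complex II. On SAG plate 2 the proportions were different, with 66.7% in complex V, 18.8% in complex IV, 7.40% in complex III, 6.27% in complex I and 0.799% in complex II. These shares depend on transcript length as well as on copies, since reads cover the whole transcript.

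**Figure D2:**
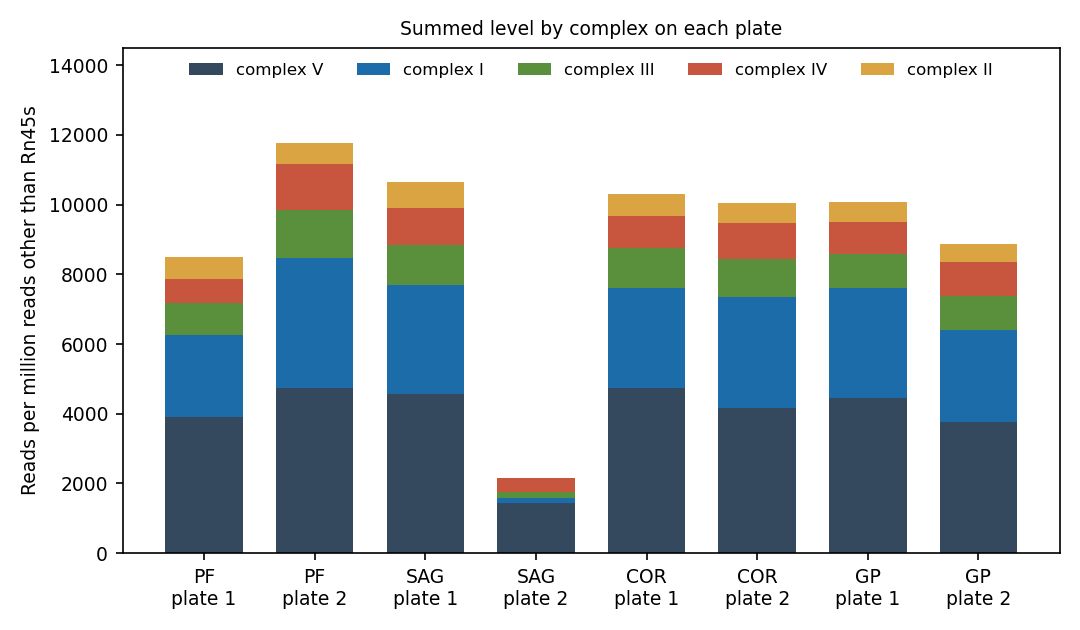
RPM summed over the genes of each complex, on each of the 8 plates (stacked bars from 0, a colour for each complex). Complex V is the largest segment on every plate, from 3768 to 4750 on 7 plates and 1446 on SAG plate 2, where complex I is at 136.

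Of the 82 members 77 had a read in some cell. No read was found in any cell for Cox6a2, Cox7b2, Cox8b and Cox8c, isoforms known from heart and skeletal muscle or testis, nor for Ndufs5, a complex I subunit of all tissues. For a gene at 0 the limit of 3 counts allows a read in up to 0.923% of the 325 cells. Ndufs5 had 0 near-identical copies elsewhere in mm9 and no overlapping gene in the annotation, and its 0 is not read here as a measure of its expression. Ubiquitous counterparts were read, with Cox6a1 at 74.4 to 138 RPM on the 7 plates, Cox8a at 103 to 191, Cox7a2 at 35.8 to 110 and Cox7b at 36.7 to 104. Cox7a1, the muscle and brown fat form of the COX7A subunit, reached at most 0.309 RPM, and Cox6b2, a testis form, at most 6.42.

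Per kilobase of exon, a scale that allows only roughly for length, the highest mean levels over the 7 plates were those of Atp5a1 (308 RPM per kb) and Atp5b (296), which encode the alpha and beta subunits of the catalytic head of ATP synthase. Cox8a (271), a small subunit of cytochrome oxidase, and Uqcrc1 (241), a core protein of complex III, came next. Ndufb9 (213), Atp5c1 (211), encoding the gamma subunit of the rotor, and Ndufa4 (194) followed. Ndufa4 is named with complex I although its protein is known to belong to complex IV. The length joins all annotated exons of a gene and can far exceed its longest transcript. It was 4237 against 1916 bases for Atp5b and 2259 against 838 for Atp5o. The order thus rests on the exon lengths of 1 annotation (GENCODE vM1, mm9) and could differ with transcript lengths. Ndufb8, without a single locus there, was not ranked.

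Member levels had a smaller spread between plates than those of genes in general. Among the 74 members with a mean of 10 RPM or more over the 7 plates, the coefficient of variation across plates had a median of 24.5%, with a range of 8.46% for Sdhc to 58.8% for Ndufa4l2. For all 8679 genes above the same mean it was 47.2%, and for the 3041 genes of like level 34.7%. Cytoplasmic ribosomal protein genes varied less (18% over 74 genes), tricarboxylic acid cycle genes alike (26.2% over 14) and mitochondrial ribosomal protein genes (33.3% over 76) and assembly factors (44.9% over 34) more, with no test of these differences. The highest plate was at a median of 2.06 times the lowest for the 74 members read on all 7 plates. Of these, 35 stayed within 2-fold and 10 passed 3-fold.

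**Figure D3:**
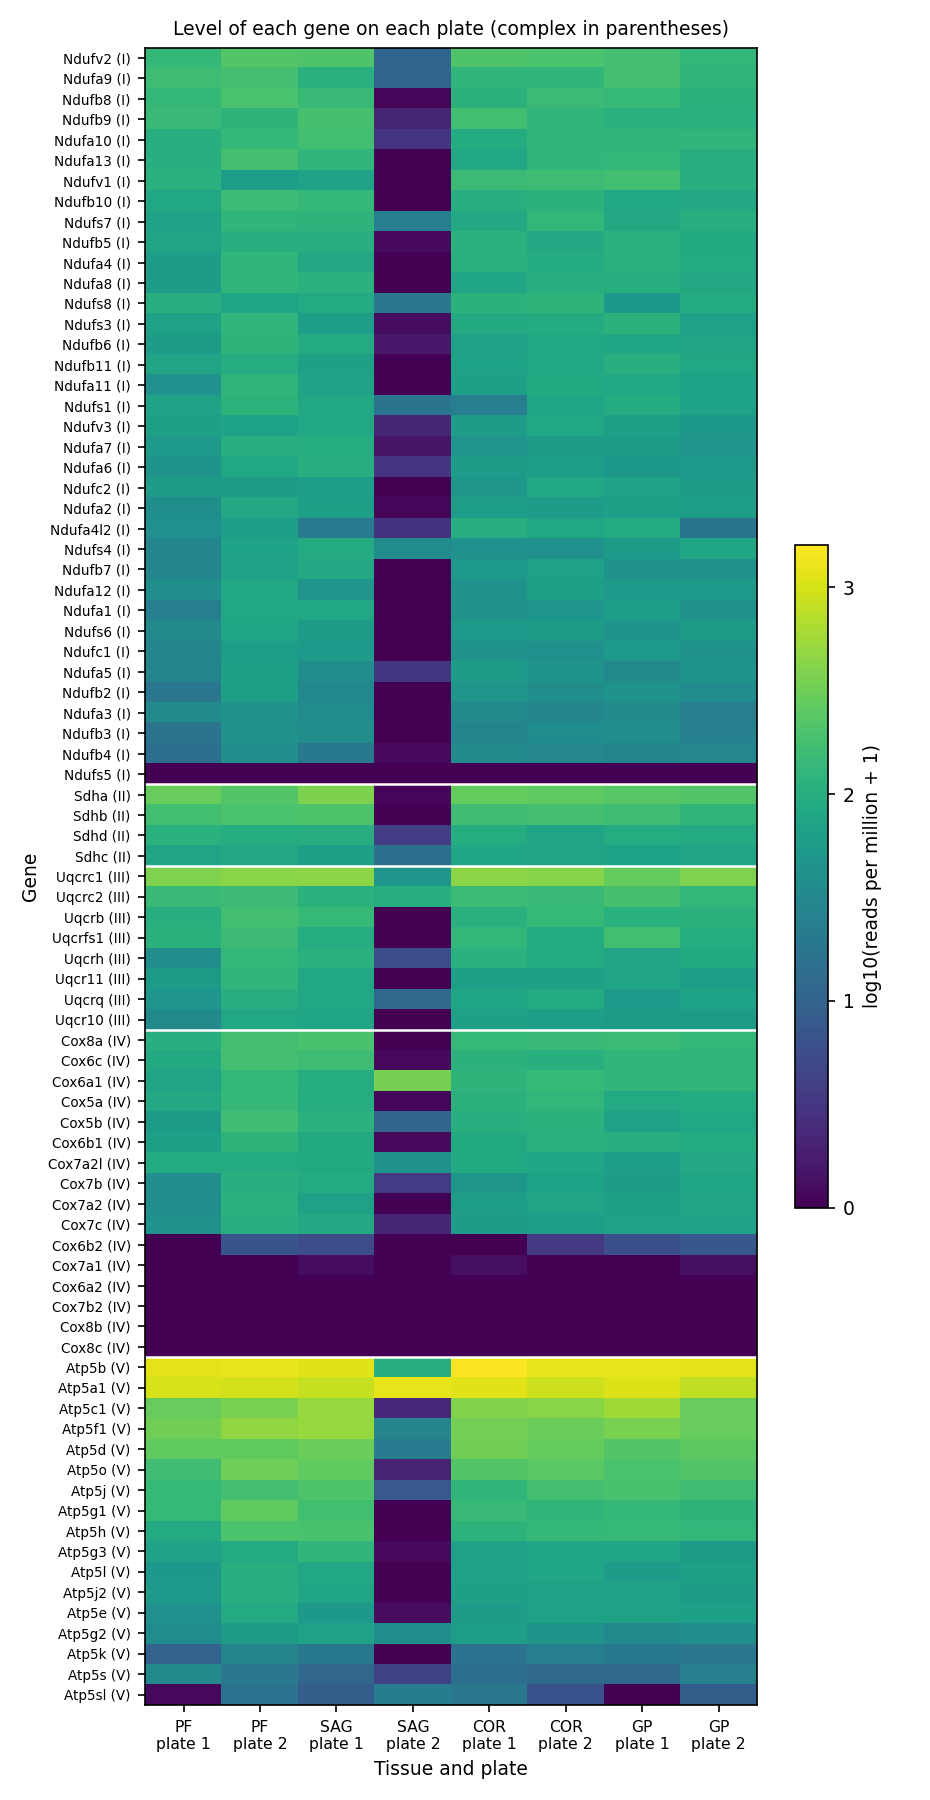
Level of the members by gene (rows, by complex and then by level) on each plate (columns), as log10 of RPM plus 1, from dark at 0 to yellow at the highest levels. The rows change little in colour across most of the 7 plates, Ndufs5 and 4 tissue-restricted isoforms of complex IV are dark throughout, and the column of SAG plate 2 is dark for many members but not for Atp5a1, at 1227, or Cox6a1, at 352.

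Complex I is the NADH dehydrogenase. Among members beyond the plates and at 50 RPM or more, the one with the largest ratio had a complex I symbol in 5 of the 6 comparisons. In PF against GP it was Atp5g1 of complex V, and in PF against SAG and SAG against COR Ndufa4l2, no classical subunit. Complex I gave 36 of the 75 members tested, or of 74 in COR against GP, and the comparisons share tissues. Ndufv1, which encodes the flavoprotein subunit that takes electrons from NADH (mm9 chromosome 19, 4007497 to 4012806), was at 112 and 61.4 RPM on the PF plates, 69.7 and 0 on the SAG plates, 153 and 160 on the COR plates, and 172 and 105 on the GP plates. Both COR plates lay above both PF plates and both SAG plates, while GP overlapped with PF and COR. The share of cells with a read was 40.2% in PF (Clopper-Pearson interval 29.9% to 51.3%) and 68.9% in COR (57.1% to 79.2%), and after thinning to 100000 reads per cell it was 40% and 69%. A count of 0 in the 56 cells of SAG plate 2 allows a share of up to 5.36%.

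Ndufa4l2 (mm9 chromosome 10, 126951995 to 126954208) was at 39.4 and 61.2 RPM in PF, 20.5 and 1.93 in SAG, 104 and 82.8 in COR, and 91.3 and 16.4 in GP. Both COR plates lay above both PF plates, and both SAG plates below all PF and COR plates, but the range of the GP plates overlapped with those of all 3 sutures. A read of Ndufa4l2 was found in 50% of COR cells (38.1% to 61.9%), 34.5% of PF cells (24.6% to 45.4%), 17.9% of GP cells (10.2% to 28.3%) and 16.7% of the cells of SAG plate 1 (5.64% to 34.7%). On COR plate 1 a single cell gave 52.7% of its reads and on SAG plate 1 a single cell gave 56.7%. Without these cells the plates stood at 56.4 and 9.05 RPM, so that COR plate 1 fell under PF plate 2 and COR no longer lay above PF. It overlaps Shmt2 in the annotation, and whether the counting used strand is not given in the sources used here.

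Ndufs4, an accessory subunit of the NADH-binding arm needed for the stability of complex I, was lower in COR than in GP. It stood at 40.5 and 41.3 RPM on the COR plates, 55.5 and 75.2 on the GP plates, 27.9 and 71.3 on the PF plates, and 93.1 and 34.6 on the SAG plates. Both COR plates were below both GP plates, and the PF plates lay on either side of COR. Among the most read members of complex I were Ndufv2, Ndufb8 and Ndufa9, each between 106 and 223 RPM on the 7 plates. Ndufs8, an iron-sulphur subunit, was at 102 and 74.6 in PF, 112 and 121 in COR, and 50.2 and 93.6 in GP, so that COR lay above the others. The smaller accessory subunits Ndufb2 (16.9 to 66), Ndufa1 (23.3 to 79.7) and Ndufa11 (40.7 to 125) had their lowest of the 7 plates on PF plate 1.

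Complex II, succinate dehydrogenase, is encoded wholly in the nucleus. Sdha, its flavoprotein, was at 290 and 220 RPM in PF, 375 and 0.0967 in SAG, 278 and 256 in COR, and 233 and 214 in GP. Sdhb, the iron-sulphur subunit, was at 169 and 196 in PF, 202 and 0 in SAG, 166 and 179 in COR, and 159 and 125 in GP. SAG plate 1 was the highest plate for both, and the GP plates were under the COR plates for both. Sdhc and Sdhd, the membrane anchors, were nearly level, with 63 to 83.9 and 72.4 to 109 on the 7 plates.

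In complex III, the core proteins Uqcrc1 and Uqcrc2 and the Rieske iron-sulphur protein Uqcrfs1 were the leading members with Uqcrb. Uqcrc1 was at 388 and 436 RPM in PF, 446 and 47.2 in SAG, 441.3 and 422 in COR, and 278 and 378 in GP, with both GP plates under all other plates but SAG plate 2. Uqcrc2 was at 144 and 154 in PF, 110 and 96.8 in SAG, 150 and 145 in COR, and 186 and 130 in GP. Its SAG plates were its lowest and lay close to each other. On SAG plate 2, however, it was read in only 8 cells, and a single cell gave 45% of its reads. Uqcrb, Uqcrh and Uqcr11, small subunits, had near-identical copies elsewhere in the genome, as 11 members did in all, and their counts may have lost or gained reads by that.

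Complex IV, cytochrome c oxidase, was led by Cox6a1, Cox8a, Cox6c and Cox5a. Cox6a1 was at 74.4 and 131 RPM in PF, 94.1 and 352 in SAG, 121 and 138 in COR, and 127 and 128 in GP, and SAG plate 2 was its highest plate. Cox5a was at 83.7 and 136 in PF, 94.4 and 0.0967 in SAG, 114 and 130 in COR, and 90.3 and 91.6 in GP. Cox7a2l, a factor of supercomplex formation named with the COX7A family, was at 92.1 and 94 in PF, 88.3 and 41.4 in SAG, 86.2 and 78.8 in COR, and 58.9 and 84.7 in GP. The PF plates of Cox7a2l were the highest by a small margin, and its lowest value outside SAG plate 2 was on GP plate 1. On SAG plate 2 Cox7a2l was read in 2 cells, and a single cell gave 99.1% of its reads. Cox4i1, a nuclear subunit outside the symbol rule, lay between 311 and 398 on the 7 plates and at 14.7 on SAG plate 2. Its low-oxygen isoform Cox4i2 lay between 2.01 and 11.1 on 6 plates and at 70.6 on GP plate 1, with no read on SAG plate 2. A single cell gave 63% of the Cox4i2 reads on GP plate 1, which stood at 27.4 without it.

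Complex V gave the most reads. Atp5b was at 1190 and 1235 RPM in PF, 1148 and 100.8 in SAG, 1548 and 1208 in COR, and 1253 and 1186 in GP. Atp5a1 was at 1019 and 968 in PF, 837 and 1227 in SAG, 1160 and 912 in COR, and 1078 and 794 in GP. Atp5b and Atp5a1 encode subunits that pair in equal number in the enzyme. From SAG plate 1 to SAG plate 2 Atp5b was lower and Atp5a1 higher, while on the 7 plates the highest level was 1.35 times the lowest for Atp5b and 1.46 times for Atp5a1.

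The c-ring of ATP synthase is built from 1 mature protein encoded by 3 genes, Atp5g1, Atp5g2 and Atp5g3, which differ in the leader peptide. Atp5g1 was at 139 and 262 RPM in PF, 169 and 0 in SAG, 147 and 125 in COR, and 134 and 121 in GP. PF plate 2 was high, and both PF plates were above both GP plates. Atp5g1 made up 46.6% to 64.3% of the reads of the 3 genes on the 7 plates, Atp5g2 13.5% to 22.1% and Atp5g3 22.1% to 34.9%. On SAG plate 2 Atp5g2 made up 99.5%, at 38 RPM against 66.9 on SAG plate 1. In mm9, 3 intronless copies of Atp5g2 were 100% identical to it over the part aligned, so which locus its reads came from cannot be told.

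**Figure D4:**
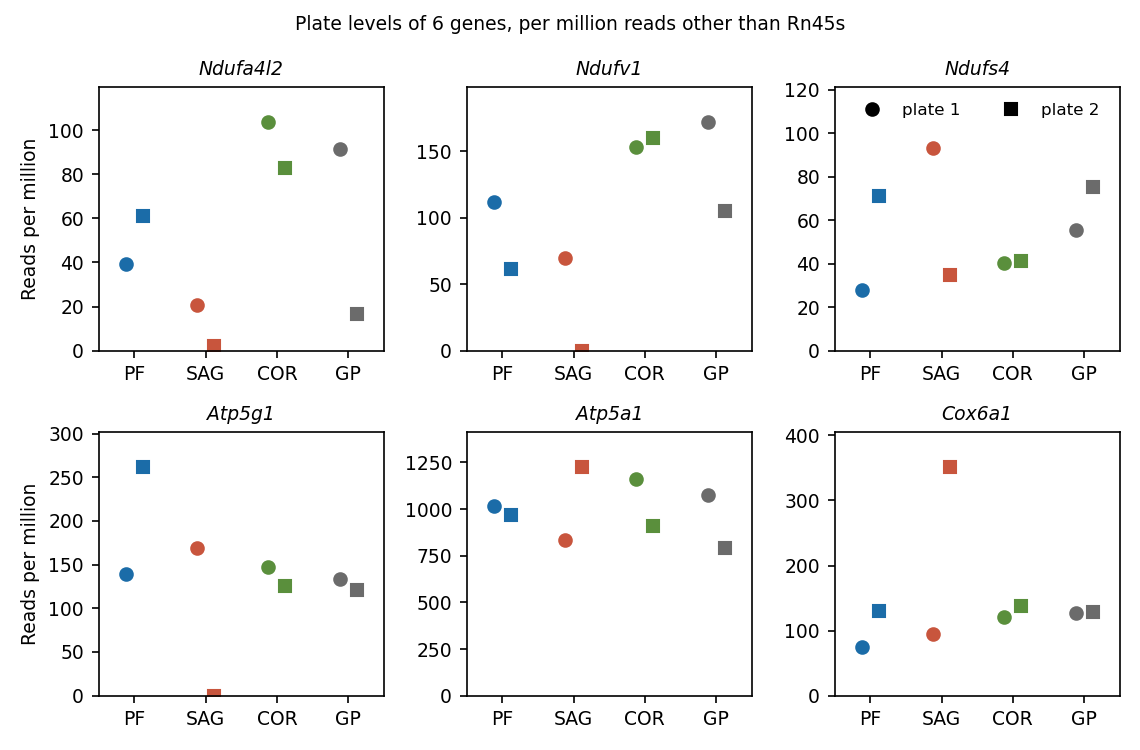
RPM of Ndufa4l2, Ndufv1, Ndufs4, Atp5g1, Atp5a1 and Cox6a1 on each plate (circles plate 1, squares plate 2; linear axes from 0). The COR plates of Ndufv1, at 153 and 160, lie above the PF plates, and SAG plate 2 is at 0 for Ndufv1 and Atp5g1 and highest for Atp5a1 and Cox6a1.

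The design allows 6 comparisons between tissues. For each, a log2 ratio of the summed levels plus 1 was taken, and a gene was counted as beyond the plates where all 4 ratios of a plate of the first tissue to a plate of the second had the same sign. Genes with at least 10 RPM in at least 1 of the tissues were tested. In 5 comparisons 75 members passed that minimum, and 74 in COR against GP. The 5 members without a read, Cox6b2 and Cox7a1 never passed, and Atp5sl did not in COR against GP. The summed level of the members had the same sign in all 4 plate ratios in 0 of the 6 comparisons. By complex, the sum of complex II did in PF against GP (0.24, plate ratios 0.09 to 0.36) and COR against GP (0.19, 0.06 to 0.295). Complex III did in COR against GP (0.16, 0.14 to 0.21), as both lists of ribosomal protein genes did there. The other sums by complex did not, and no background was counted for sums.

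PF against COR asked whether cells of the suture that later fuses differ from those of a suture that stays patent. By the paper's account all 3 sutures were still patent at postnatal day 3. The summed log2 ratio was 0.14, with plate ratios from -0.28 to 0.23. Of 75 members 4 were higher in PF, where 14.6% of all genes tested were, and 5 were lower, where 17.8% were, which made shares of 5.33% and 6.67% of the members. Of these, Ndufv1 was lower in PF by the largest margin (71.2 against 160 RPM, log2 ratio -1.15). Ndufs8 (-0.58), Ndufa4l2 (-0.57), Atp5c1 (-0.28) and Atp5d (-0.12) were also lower, while Atp5s (0.73), Ndufa3 (0.46), Ndufa9 (0.46) and Cox7a2l (0.23) were higher. Scaled by the TMM factors of edgeR or the size factors of DESeq2 the counts were 12 higher and 4 lower. Over all reads with Rn45s they were 2 higher and 5 lower, so the balance of directions depends on the scaling. The share of all genes was not counted under these scalings, so these counts have no background. Without PF plate 2 the summed ratio was -0.25, and it was 0.22 without PF plate 1. With the cell that gave most reads of a gene left out on each plate in turn, 2 of the higher members (background 4.12%) and 3 of the lower ones (background 7.5%) held on all plates. Ndufv1, Atp5c1, Atp5d, Ndufa9 and Cox7a2l held, while Ndufa4l2, Ndufs8, Atp5s and Ndufa3 each rested on a single cell of a plate.

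PF against GP set the suture that later fuses, still patent at this age, beside the growth plate. The summed log2 ratio was 0.29, with plate ratios from -0.24 to 0.41. Of 75 members 9 were higher in PF against a background of 17.4%, and 0 were lower against 19.2%. Of the members beyond the plates Atp5g1 had the largest ratio (238 against 123 RPM, 0.95), followed by Sdhb (191 against 131, 0.54), Ndufv3 (0.42), Uqcrc1 (0.24) and Ndufb9 (0.23), and Cox7a2l, Sdhc, Sdhd and Atp5d were higher by 0.08 to 0.22. All genes tested had a median ratio of 0.10 and members one of 0.40. TMM gave 15 higher and 2 lower, and size factors gave 15 and 3. Averaged over cells the split was 2 higher and 3 lower, so the direction did not hold under that reading. For these splits the share of all genes was not counted, so they have no background. Without PF plate 2 the summed ratio was -0.09. Only Cox7a2l and Ndufb9 held without the top cell of the gene on each plate in turn, 2 of the 9 higher members (background 6.11%) beside 0 lower ones (background 8.2%), and the calls of Atp5g1, Sdhb, Ndufv3, Uqcrc1, Sdhc, Sdhd and Atp5d ended.

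COR against GP gave the most members beyond the plates. The summed log2 ratio was 0.15, with plate ratios from -0.00 to 0.22. Of 74 members 19 were higher in COR, against 19.1% of all genes tested, and 6 were lower, against 17.9%. As a share the higher members were 25.7% and the lower ones 8.11%. Ndufb7 (65.1 against 43.1 RPM, 0.58), Ndufv2 (0.49), Cox5a (0.49), Ndufs8 (0.48), Cox5b (0.48) and Sdhb (0.44) led the higher members, and 4 of 8 complex III genes and 3 of 4 complex II genes were among them. Ndufs4 was lower (41.2 against 71.8, -0.79), as were Cox6c (-0.33), Cox7c (-0.18), Ndufc1, Ndufa10 and Ndufa2. All of these differences were under 2-fold. TMM factors gave 16 higher and 8 lower and size factors 18 and 7, with summed log2 ratios of 0.08 and 0.07. With Rn45s counted in the total the split was 26 higher and 2 lower, and with the 50 most read genes left out of the total it was 21 and 3. Averaged over cells instead of summed it was 10 higher and 17 lower. The direction for the members as a group thus did not hold under that reading. For none of these settings was the share of all genes counted, so the splits have no background. The median ratio of all genes was itself 0.07, and 0.15 with Rn45s in the total. Without the top cell of the gene on each plate in turn 11 higher (background 8.55%) and 1 lower (background 7%) remained. Ndufb7, Ndufv2, Cox5a, Ndufs8, Cox5b and Ndufs4 were among these, and the calls of Sdhb, Cox6c and Cox7c ended. Of complexes II and III only Sdha and Uqcr10 were still called.

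In comparisons with SAG the 2 plates of SAG gave very different ratios. Of the 4 plate ratios of a gene, 2 use SAG plate 2. There 81.1% of members and 39% of genes with 10 RPM or more on SAG plate 1 fell under 10% of that level. A member could thus hardly be counted as higher in SAG, and a count as lower rests mainly on SAG plate 1. The counts below are therefore not read as tissue differences. PF against SAG had a summed log2 ratio of 1.00, with plate ratios from -0.32 to 2.44. Of 75 members 11 were higher in PF (background 19.2%) and 0 lower (background 16.1%). For SAG against COR the ratio was -0.86 (plate ratios -2.25 to 0.08), with 0 members higher (background 17%) and 17 lower (background 22.2%). For SAG against GP it was -0.71 (-2.22 to 0.27), with 0 higher (background 16.4%) and 17 lower (background 21%). The median ratio of all genes was itself 0.29 in PF against SAG, -0.29 in SAG against COR and -0.23 in SAG against GP, and with size factors it was -0.04, 0.04 and 0.01, where the summed ratio of the members was 0.66, -0.53 and -0.46. Among members beyond the plates and with at least 50 RPM in a tissue, Ndufa4l2 had the largest ratio in PF against SAG (2.48) and SAG against COR (-3.05). Ndufs3 (2.22), Uqcrfs1 (1.95), Ndufa9 (1.86) and Ndufb11 (1.79) followed in PF against SAG, and Ndufv1 (-2.48), Ndufs3 (-1.90) and Cox5a (-1.74) in SAG against COR, by the same minimum level. In SAG against GP the leading member at that level was Ndufv1 (-2.03), and Ndufb11 (-1.65), Ndufs3 (-1.61) and Atp5e (-1.60), the last encoding the epsilon subunit of the rotor stalk, were among the next largest. Without the top cell of the gene on each plate in turn, 4 of 11 higher members held in PF against SAG (background 9.96%, and 6.57% for the 0 lower ones), and the calls of Ndufs3 and Ndufb11 ended there. Of the lower members 16 of 17 held in SAG against COR (background 12.8%, and 6.82% for the 0 higher ones) and 12 of 17 in SAG against GP (background 11.6%, and 6.38% for the 0 higher ones). These comparisons share their SAG cells and are not independent.

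**Figure D5:**
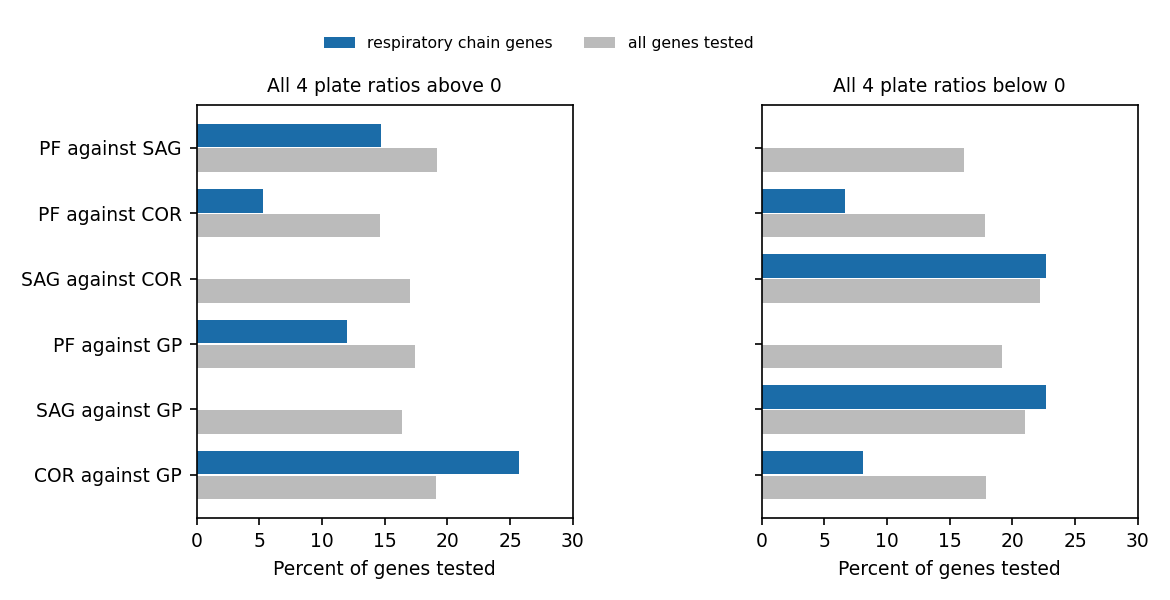
Percent of genes tested whose 4 plate ratios all lay above 0 (left) or all below 0 (right) in each comparison of 2 tissues, for respiratory chain genes and for all genes tested. Members stand above all genes in COR against GP on the left (25.7% against 19.1%) and a little above them in both SAG comparisons on the right (22.7%), and have no bar on the right for PF against SAG or GP and on the left for SAG against COR or GP. Bars for SAG include the ratios with SAG plate 2, where most members were nearly lost.

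With SAG plate 1 alone the summed ratios were small. The summed log2 ratio was 0.062 for PF against SAG plate 1, 0.08 for SAG plate 1 against COR and 0.23 for SAG plate 1 against GP. Only 2 plate ratios stand behind each gene here, and more genes have both of one sign. In PF against SAG plate 1, 12 of 75 members were higher (background 29.3%) and 19 lower (background 40.3%). In SAG plate 1 against COR 39 of 74 were higher (background 41.7%) and 19 lower (background 32.8%), and in SAG plate 1 against GP 43 of 74 were higher (background 42.1%) and 18 lower (background 31.4%). Ndufa4l2 (-2.0) and Ndufv1 (-1.18) were lower and Ndufs4 (1.16) higher on SAG plate 1 than in COR. Atp5g3 (1.09), Ndufa6 (0.99), Ndufa7 (0.97), Ndufb7 (0.95) and Ndufa1 (0.81) were higher on SAG plate 1 than in GP.

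The number of members read in a cell told the same plates apart. The median cell had reads of 48 and 58 members on the PF plates, 58 on SAG plate 1, 70 and 64 on the COR plates and 62 and 59 on the GP plates, but of 4 on SAG plate 2, where the range was 1 to 9. Thinned to 100000 reads other than Rn45s, the medians were 52 and 57.5, 57, 68.5 and 61, 60 and 57, and 4 on SAG plate 2. Cells shallower than that were left out, with 17 PF, 6 SAG, 3 COR and 11 GP cells among them. The median member was read in 69% of PF cells, 85.8% of COR cells, 76.9% of GP cells and 76.7% of the cells of SAG plate 1, and in 1.79% of the cells of SAG plate 2. In COR 30 members were read in at least 90% of cells, on SAG plate 1 22, in GP 10 and in PF 5. These counts are not thinned, and the cells of COR had the most reads other than Rn45s. After thinning the median member was read in 81.7% of COR, 75.4% of GP and 70% of PF cells. On SAG plate 1 that share was 80%. Atp5b was read in every COR cell, in 92% of PF cells and in 96.2% of GP cells.

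On SAG plate 2 a pair of genes held most of what was left. Atp5a1 gave 56.6% of member reads and Cox6a1 16.2%, together 72.8%, against 8.74% on SAG plate 1. Without both genes the members stood at 588 RPM on SAG plate 2 and 9719 on SAG plate 1. Cox6a1 was read in 48 of the 56 cells (85.7%, interval 73.8% to 93.6%) and Atp5a1 in 40 (71.4%, 57.8% to 82.7%), and 55 cells had a read of at least 1 of them. The next by cells was Atp5d, encoding the delta subunit of the central stalk, which was read in 26 cells (46.4%) at only 19.1 RPM.

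Most other members were read there in very few cells or in none. Of the 82 members 35 had no read on SAG plate 2, and 30 of these were read on other plates. Another 38 were read in 1 to 5 cells, and 25 in 1 cell only. Outside the members Cox4i1 was read in 44.6% of these cells and Usmg5 in 41.1%, both at low levels of 14.7 and 12 RPM. Slc25a4, an ADP/ATP carrier, was at 578 RPM on SAG plate 1 and 0 here, and Slc25a5, another, at 515 and 28.6.

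A larger share of members than of all genes was nearly lost on that plate. Of the 74 members at 10 RPM or more on SAG plate 1, 60 (81.1%) were under 10% of that level on SAG plate 2. For all 8151 genes the share was 39%. It was 54.2% for the 3380 genes with exon lengths from the 10th to the 90th percentile of the members (570 to 3504 bases). Lengths were not matched within that window, so these genes can be longer than the members. Median exon length was 1322 bases in members and 3823 in all genes with a length. At or above the level of SAG plate 1 were 2 members (2.70%) and 30.9% of all genes. The median ratio of the plates was 0.00338 for members and 0.281 for all genes. Members without a read had a median exon length of 903 bases (28 genes) and members with a read 1701 bases (45 genes). Across genes the ratio rose with exon length, with a Spearman coefficient of 0.22 over the 73 members with a length and 0.42 over 7647 genes, a description over genes of 2 plates. The part of transcript length in the loss was not tested beyond these values.

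Other gene lists were affected unevenly on SAG plate 2. Under 10% of their SAG plate 1 level were 90.5% of 74 cytoplasmic ribosomal protein genes, 87.5% of the 8 genes for the ATP synthase inhibitor, cytochrome c, carriers and porins, 72.2% of 72 mitochondrial ribosomal protein genes, 65.6% of 32 assembly factors, 50% of 14 glycolysis genes and 28.6% of 14 tricarboxylic acid cycle genes. The tricarboxylic acid cycle genes summed to 1963 RPM on SAG plate 2, against 2067 to 2623 on the other plates. That sum hid a change of members, since Ogdh, a subunit of the oxoglutarate dehydrogenase, made up 46.7% of it on SAG plate 2, while Idh2, an isocitrate dehydrogenase, made up the most or came next to the top on the other plates.

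The pairs of complexes compared had positive coefficients from cell to cell on 7 plates, and some of these were low. The Spearman coefficient between the complex I and the complex V level across the cells of a plate lay between 0.52 and 0.91 (16 to 58 cells), and between complex I and complex II, which has only 4 genes, between 0.23 and 0.67. Complexes III and IV ranged from 0.11 on GP plate 1 to 0.67 on COR plate 1. Complexes I and IV ranged from 0.26 to 0.86 and IV and V from 0.28 to 0.83 on the same plates. Complexes III and V ranged from 0.25 on SAG plate 1 to 0.79 on COR plate 1. On SAG plate 2 it was -0.22 for complexes I and V over 56 cells. The members as a whole followed the mitochondrial ribosomal protein genes with 0.31 to 0.89, the cytoplasmic ones with 0.28 to 0.70 and the glycolysis genes with 0.14 to 0.96 on the 7 plates. With the osteoblast markers the coefficient was -0.76 to -0.11. All these levels share a total, and the osteoblast genes fill much of it. With the 50 most read genes left out of the total the coefficient with the osteoblast markers was -0.42 to 0.09. The cells of a plate share preparation and differ in depth, so the coefficients are given without a p.

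The wider pathway was compared between tissues in the same way. In COR against GP, where the members had 19 higher and 6 lower of 74 and all genes tested 19.1% and 17.9%, cytoplasmic ribosomal protein genes had 23 higher and 3 lower of 75, mitochondrial ribosomal protein genes 21 and 8 of 76, the inhibitor and carrier genes 4 and 0 of 8, assembly factors 5 and 4 of 36, tricarboxylic acid cycle genes 3 and 1 of 14, and glycolysis genes 2 and 3 of 15. In PF against COR, where all genes tested had 14.6% higher and 17.8% lower, glycolysis genes had 1 higher and 5 lower of 15, tricarboxylic acid cycle genes 3 and 3 of 14, assembly factors 5 and 6 of 38, mitochondrial ribosomal protein genes 5 and 12 of 77 and cytoplasmic ones 0 and 4 of 74. The glycolysis genes summed to 4126 and 4641 RPM, with all 4 plate ratios below 0. In PF against GP, where all genes tested had 17.4% higher and 19.2% lower, glycolysis genes had 1 higher and 6 lower of 16, tricarboxylic acid cycle genes 5 and 1 of 14, assembly factors 9 and 2 of 38, mitochondrial ribosomal protein genes 11 and 4 of 77 and cytoplasmic ones 6 and 2 of 75. The inhibitor and carrier genes had 2 higher and 1 lower of 8 in PF against COR and 3 and 0 in PF against GP. Their sum had all 4 plate ratios above 0 in PF against GP (0.05 to 0.52) and COR against GP (0.15 to 0.22). The genes known to drive mitochondrial gene expression were thinly read. Ppargc1a, a coactivator of mitochondrial biogenesis, was found in at most 3.57% of the cells of any plate, and Nrf1, Gabpa and Tfam in at most 37.5%, 25% and 25%. At such shares their plate levels rest on few cells, and no difference between tissues could be read from them.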

How the data were processed

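Single cells had been sorted, with a repeat of the sort, into 96-well plates, and full-length libraries were made with oligo-dT priming, PCR and Nextera XT and read in pairs. Per the labels, the submitters' processing notes name STAR 2.5.3a, HTSeq, Seurat 2.3.0, R 3.4.4 and the build mm9, without saying which step each served. The gene annotation and the strand setting are not given in the sources used here. The authors deposited raw read counts per gene and cell in 8 tables, 1 for each plate, with 0 columns that matched no cell. The members and gene lists were chosen with earlier results of these data known.

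Cells were grouped by the titles and source names of their records. For 1 cell of SAG the description named a PF plate, and it was left out in an alternative. Cells under 500 genes read or under 10000 reads were dropped, 14 of them PF, 8 SAG, 6 COR and 7 GP. The median kept cell had 487767 reads (PF), 1221303 (SAG), 632292 (COR) or 524477 (GP), and without Rn45s 312083, 184673, 448803 or 369309. Counts were summed per tissue and plate and divided by reads other than Rn45s (RPM). Ratios are log2((a+1)/(b+1)) of RPM values, which understates changes of weakly read genes. Intervals are exact 95% Poisson or Clopper-Pearson intervals and cover counting error only. Named genes were the 4 most read members of each complex, the 5 members with the largest ratio beyond the plates and at least 50 RPM in each comparison of 2 tissues, and isoforms of known tissue restriction with their counterparts. A member that met this rule is not reported here. Members named outside that rule were chosen after their values were seen. The counting script was tested on simulated data. Alternatives were other totals, TMM factors (edgeR 4.0.16), size factors (DESeq2 1.42.0), a stricter cell filter, per-cell means, other gene minimums and pseudocounts, and each plate left out. Leaving out the cell with most reads of a gene on each plate in turn was chosen after seeing the data. Transcripts were aligned to mm9 with minimap2 2.31, and a copy had to cover 80% of a transcript at 95% identity. Scripts ran in Python 3.11.15 (numpy 2.4.6, pandas 2.3.3, scipy 1.17.1) and R 4.3.3.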

Additional observations from a re-analysis of the deposited data

Results flagged for a closer look

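Reads of the respiratory chain genes were also present in the 35 cells that the filter left out, above the limit that 3 counts would set. In PF 14 such cells held 13 member reads, or 7433 RPM (Poisson interval 3958 to 12710, limit 1715). In SAG 8 cells, all of plate 2, held 1265 member reads, or 1723 RPM (limit 4.09). In COR 6 cells held 22 member reads, or 8511 RPM (limit 1161), and in GP 7 cells held 343, or 3639 RPM (limit 31.8). The PF and COR values rest on 1749 and 2585 reads in all. These cells entered no comparison.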

How the results depend on the processing

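No paired analysis was possible because plate numbers do not mark a shared animal, litter or day, and each tissue had plates of its own. With 1 sample per tissue no test stands behind any count, and plate and tissue cannot be told apart. No summed ratio of all members together was beyond the plates. The sign of that ratio turned without PF plate 2 in PF against COR and PF against GP. It also turned without SAG plate 2 in SAG against COR and SAG against GP. With Rn45s in the total the summed level was 8138 RPM in PF, 7419 in COR and 6298 in GP, and the log2 ratios were 2.89 for PF against SAG, -2.76 for SAG against COR and -2.52 for SAG against GP. Without the 50 most read genes in the total the level was 16107 in PF, 14665 in COR and 13227 in GP. In COR it was 9639 with TMM factors, 9390 with size factors, 9875 without the cell with most member reads and 10660 with the list of classical subunits. Averaged over cells, the ratio of COR to GP was 0.039.

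Members beyond the plates numbered 11, 9, 17, 9, 17 and 25 for PF against SAG, PF against COR, SAG against COR, PF against GP, SAG against GP and COR against GP. Shares of all genes were counted only for these, for SAG plate 1 alone and for the top-cell setting. The other counts that follow have no background and are not read as results about the members. TMM factors gave 19 for PF against SAG, 16 for PF against COR and 17 for PF against GP, and size factors gave 19, 16 and 18. A total without the most read genes gave 22 for PF against SAG, 17 for PF against COR, 29 for SAG against COR and 18 for PF against GP. Per-cell means gave 15 for PF against COR, 11 for SAG against COR and 5 for PF against GP. The stricter filter of 1500 genes and 50000 reads, which kept 0 cells of SAG plate 2, gave 35 for PF against SAG, 59 for SAG against COR and 61 for SAG against GP. Without the top cell of a gene on a plate, a setting chosen after seeing the data that can only end calls, 4, 5, 2 and 12 held for PF against SAG, PF against COR, PF against GP and COR against GP. A further need of a 2-fold ratio left 1 for PF against COR, 0 for PF against GP and 0 for COR against GP.

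Leaving out each plate in turn, the PF level ran from 8503 to 11754, the SAG level from 2167 to 10650, the COR level from 10053 to 10297 and the GP level from 8856 to 10068. The ratio ran from 0.062 to 2.36 for PF against SAG, -0.25 to 0.22 for PF against COR, -2.22 to 0.080 for SAG against COR, -0.092 to 0.37 for PF against GP, -2.06 to 0.23 for SAG against GP and 0.0014 to 0.19 for COR against GP. The counts, with only 2 plate ratios to meet, ran from 18 to 73, 20 to 63, 22 to 75, 25 to 61, 21 to 74 and 43 to 56 in the order above. The other settings left 61 counts within 1.5 times, and 62 ratios and 30 levels moved no more than the spread of the plates. Among these levels was that of SAG with Rn45s in the total, at 1097 RPM. It lay under the 2167 RPM of SAG plate 2 in the main setting. The cause of each move was not tested.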
